A study of Mus musculus with 12 samples.

Results

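TRBV20 and TRBV29 are mouse T cell receptor beta chain variable genes, called Vβ15 and Vβ7 in the older naming. Every beta chain contig (TRB) in a called cell that was marked productive and carried either gene was taken, and each V gene plus CDR3 nucleotide sequence was counted once per library as a clone. This gave 1188 of the 10174 TRB clones in 6 libraries, 732 with TRBV20 and 456 with TRBV29, from 1253 contigs. The rule itself used no expression level, clone size or other measured value.

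The libraries came from CD45+ immune cells of mammary tumours in BALB/c mice, made by droplet single-cell sequencing with enrichment of T cell receptor transcripts. Of the 12 samples of the series, 8 were expression libraries and 4 were receptor libraries. The labels describe treatment only as treated or untreated, with a protocol of a 3-week course of cyclophosphamide, an alkylating drug, with pexidartinib, which blocks the receptor for the macrophage growth factor CSF1. The libraries are called here by the names in the receptor table: Combined, CSF1R, CTX and CTX2 were tied to treated samples, PBS2 had labels in conflict (its receptor sample is marked treated and the expression sample it names is marked untreated), and PBS1 was tied to an untreated sample. The labels do not say which agent stands behind each name, and the number of animals behind a library is not given in the sources used here. CSF1R could be tied to the treated group but not to 1 sample within it. The receptor table holds no expression values, so the CD45 label was not checked against marker transcripts.

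A beta chain is assembled in the thymus from a V, a D and a J gene segment, and trimmed or added bases at the joints make up much of CDR3, the loop that contacts the peptide held by an MHC molecule. The V gene fixes the start of CDR3 and the J gene its end. The mouse J genes lie in 2 clusters, TRBJ1 and TRBJ2, each behind its own D gene (TRBD1 and TRBD2). Vβ7 is also one of the usual beta chains of NKT cells, which carry an invariant alpha chain and recognise lipids, whereas Vβ15 is not among them.

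In the RefSeq table of assembly GRCm38.p6, which is of C57BL/6J and not of BALB/c, Trbv20 lies on chromosome 6 at positions 41188273 to 41188977, between Trbv19 and Trbv21, 344 kb from Trbd1. Trbv29 lies on the same chromosome at 41271403 to 41271881, between Trbv28 and Trbv30 and 261 kb from Trbd1. Between each gene and Trbd1 lie 10 further Trbv genes for Trbv20 and 1 for Trbv29. The table lists Trbv20 as a V segment and Trbv29 as a V segment pseudogene; the deposited contigs marked 456 TRBV29 clones as productive.

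The genes give CDR3 different openings. Bases at the start of CDR3 were taken in order, each shared by at least 50% of the gene's clones matching all earlier bases. The whole start can be carried by fewer clones. These commonest starts are shown first. Below them are the 2 largest TRBV20 clones and the 2 TRBV29 clones paired with the NKT alpha chain, read from the deposited contigs, where capitals mark the bases that match neither the gene's commonest start nor the commonest end of the J gene.
TRBV20 start: tgtggtgctaggga
TRBV29 start: tgtgctagcagttta
TRBV20 clone of 7 cells, PBS1: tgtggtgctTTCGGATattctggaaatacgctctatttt
TRBV20 clone of 5 cells, CTX: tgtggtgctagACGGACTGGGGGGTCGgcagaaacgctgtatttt
TRBV29 clone with the NKT alpha chain, CTX: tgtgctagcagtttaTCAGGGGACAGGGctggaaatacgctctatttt
TRBV29 clone with the NKT alpha chain, PBS1: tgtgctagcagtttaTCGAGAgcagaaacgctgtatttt
The common start of TRBV20 covers 14 bases and that of TRBV29 covers 15 bases.

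Most clones of each gene shared the leading 4 residues that these starts encode. Of TRBV20 clones, 64.2% ± 8.33 (SD, n = 6 libraries) opened with CGAR, between 50% in CTX2 and 73.3% in CTX, and CGAS was next with 80 of 732 clones. Of TRBV29 clones, 78.9% ± 7.05 (SD, n = 6) opened with CASS, between 68.2% in CTX2 and 85.7% in PBS1, and CASR was next with 41 of 456 clones. The residue after these openings also differed between the genes. At the fifth position 25.3% of TRBV20 clones carried aspartate and 16.9% glycine, whereas 39.5% of TRBV29 clones carried leucine and 11.2% phenylalanine.

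Depth differed widely between libraries. The 6 libraries held 245 to 7629 called cells, 6807 to 121305 UMIs and 141 to 7843 TRB clones. The members numbered 943 in Combined, 107 in CSF1R, 34 in CTX, 44 in CTX2, 44 in PBS2 and 16 in PBS1, so values pooled over libraries are mostly those of Combined. Of 11518 called cells, 50 carried a barcode also found in another library, and 0 of these shared a TRB contig. Nothing in the labels says that the libraries came from separate animals, so p-values measure the spread between these libraries, which may be technical.

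The share of TRBV20 among the clones varied more between libraries than that of TRBV29. TRBV20 made up 7.62% (7.05 to 8.23, exact Clopper-Pearson 95% interval) of TRB clones in Combined, 7.51% (5.85 to 9.45) in CSF1R, 3.80% (2.14 to 6.19) in CTX, 4.28% (2.70 to 6.41) in CTX2, 5.47% (3.46 to 8.17) in PBS2 and 6.38% (2.96 to 11.8) in PBS1. Combined and CSF1R were the highest, CTX and CTX2 the lowest, and the interval of Combined lay above those of CTX and CTX2. How many other genes show such a gap was not counted. The highest share was 2.01 times the lowest for TRBV20 and 1.28 times for TRBV29. It was 1.33 times for TRBV13-2 and 1.39 for TRBV5, and 2.13 for TRBV13-1 and 2.37 for TRBV31. The spread of TRBV20 thus lay within that of other genes. These intervals cover counting error only.

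TRBV29 made up 4.40% (3.96 to 4.88) in Combined, 4.66% (3.37 to 6.27) in CSF1R, 4.81% (2.92 to 7.41) in CTX, 4.28% (2.70 to 6.41) in CTX2, 5.47% (3.46 to 8.17) in PBS2 and 4.96% (2.02 to 9.96) in PBS1. All 6 intervals overlapped. Over the 6 libraries TRBV20 averaged 5.84% ± 1.61 and TRBV29 averaged 4.77% ± 0.429 (SD, n = 6 each).

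The neighbours of both genes in the order of mean share were close. TRBV20 stood between TRBV31, at 6.01%, and TRBV4, at 5.61%, and exceeded them in 2 and 3 of 6 libraries. TRBV29 stood between TRBV4 and TRBV2, at 4.56%, and exceeded them in 1 and 3 of 6 libraries. Each of these neighbours differed from the gene by less than its own spread between libraries. Among 14 TRBV genes with a mean share of at least 1%, the clone share over the 6 libraries was most like that of TRBV20 for TRBV2 (Pearson r = 0.53), TRBV31 (0.52) and TRBV4 (0.39). It was most like that of TRBV29 for TRBV2 (0.64), TRBV17 (0.56) and TRBV16 (0.48). These correlations rest on shares of the same libraries and are given as a description.

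**Figure D1:**
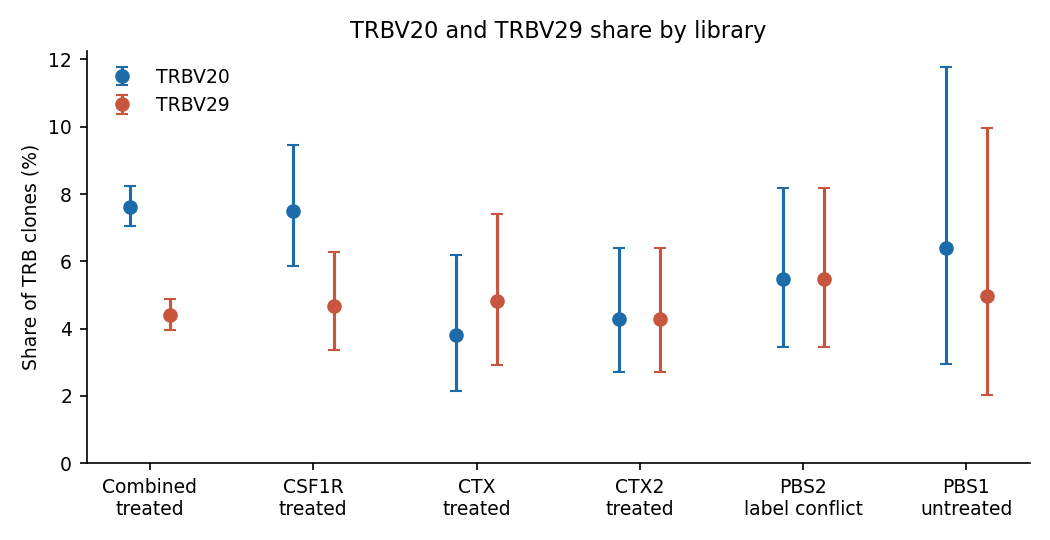
Share of TRB clones (vertical axis, percent) that used TRBV20 (blue) or TRBV29 (red) in each library, 4 treated, 1 with conflicting labels and 1 untreated. Bars are exact Clopper-Pearson 95% intervals, and TRBV20 varied between 3.80% and 7.62% while TRBV29 stayed between 4.28% and 5.47%.

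Neither gene differed detectably between treated and untreated libraries. TRBV20 averaged 5.80% ± 2.05 in the treated libraries (SD, n = 4) and was 6.38% in PBS1, a difference of -0.580 percentage points (two-sided exact permutation p = 1, adjusted p = 1 over 22 TRBV genes). TRBV29 averaged 4.54% ± 0.242 in the treated libraries (SD, n = 4) and was 4.96% in PBS1, a difference of -0.426 points (exact permutation p = 0.4, adjusted p = 0.587). The smallest p that 4 libraries against 1 allow is 0.2. PBS1 lay within the treated range for TRBV20 and above it for TRBV29, and the untreated library lay outside the treated range for 63.6% of the 22 genes. With PBS2 counted as untreated the TRBV29 difference was -0.680 points (exact permutation p = 0.0667, the smallest that this split allows, adjusted p = 0.367) and that of TRBV20 was -0.125 points.

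In each library the mean CDR3 was shorter in TRBV20 clones than in the clones of other TRBV genes, without passing the adjusted test. The mean length of TRBV20 clones was 13.2 amino acids in Combined, 13.2 in CSF1R, 13.1 in CTX, 12.7 in CTX2, 12.9 in PBS2 and 12.6 in PBS1. The other clones averaged 13.8 in Combined, CSF1R, CTX and CTX2, 13.7 in PBS2 and 13.9 in PBS1. No TRBV20 value reached the lowest value of the other clones.

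The mean difference in length was -0.873 amino acids (SD 0.306, n = 6 libraries, lower in 6 of 6), with an exact sign-flip permutation p = 0.03125, the smallest that 6 libraries allow, and an adjusted p = 0.0938 over the 12 TRBV genes with at least 5 clones in each library. The adjusted p does not pass 0.05, which at this smallest p would need at least 8 of the 12 genes to reach it. The clones were chosen by the V gene, which sets the start of CDR3, so the length is not independent of that choice. A lower length in all 6 libraries was found for 16.7% of the 12 genes, TRBV20 and TRBV1. The receptor identifier given with the contigs begins with JR for Combined and CTX2, called here the JR libraries. It does not for CSF1R, CTX, PBS2 and PBS1, called here the libraries named by number. What this identifier stands for is not stated. The difference was -0.889 within the 4 libraries named by number and -0.842 within the JR libraries.

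TRBV29 clones were close to the other clones in length. They averaged 13.6 amino acids in Combined, 13.7 in CSF1R, 13.8 in CTX, 14.1 in CTX2, 13.3 in PBS2 and 14 in PBS1. The difference from other clones was -0.0129 amino acids (SD 0.287, n = 6, exact sign-flip p = 0.875). Directly compared, TRBV20 was shorter than TRBV29 by a mean difference of -0.812 amino acids (SD 0.490, lower in 6 of 6 libraries, exact sign-flip p = 0.03125, adjusted p = 0.141 over 9 measures).

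TRBV20 held fewer long and more short CDR3s than TRBV29 or the clones with neither gene. Pooled over libraries, the median was 13 amino acids for TRBV20, 14 for TRBV29 and 14 for clones with neither gene. CDR3s of 15 or more residues made up 12.6% of TRBV20 clones (92 clones), 27.6% of TRBV29 clones (126 clones) and 34.3% of clones with neither gene. CDR3s of 12 or fewer made up 27.2% of TRBV20 clones, 19.5% of TRBV29 clones and 18.2% of clones with neither gene.

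**Figure D2:**
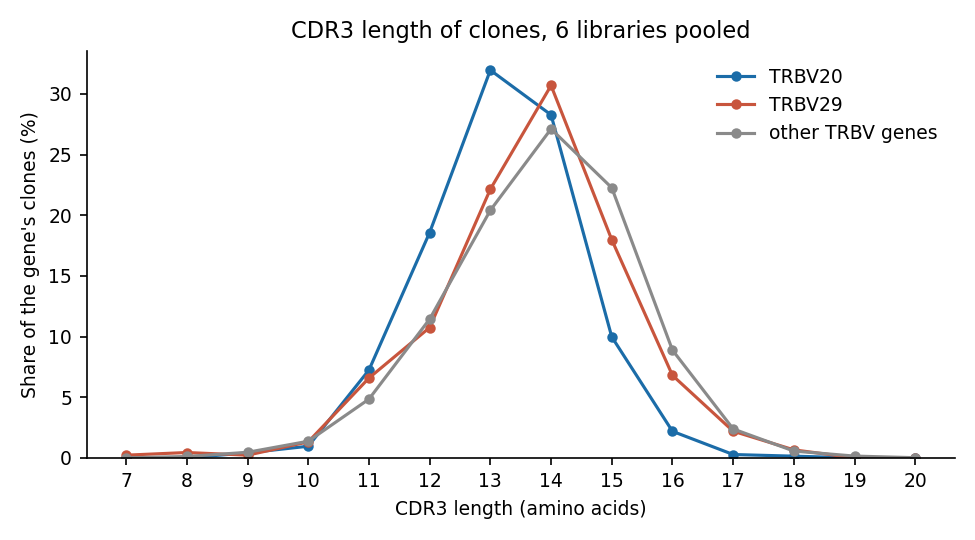
Share of clones (vertical axis, percent) at each CDR3 length (horizontal axis, amino acids) for TRBV20, TRBV29 and all clones with neither gene, pooled over 6 libraries. The TRBV20 curve peaks at 13 residues and the other curves at 14.

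Counted in bases, the stretch that matched the V gene's common start differed most between TRBV20 and other clones. Other clones are here only those of the remaining genes among the 12 with at least 5 clones in each library. TRBV20 clones matched their common start over 11.2 ± 0.583 bases and other clones theirs over 13.1 ± 0.118 (SD, n = 6 libraries), lower in 6 of 6 libraries. The bases between the matched V and J ends numbered 9.38 ± 0.822 in TRBV20 clones and 9.70 ± 0.101 in other clones, and the bases matching the J end 18.2 ± 1.28 and 18.5 ± 0.209. In TRBV29 clones the corresponding means were 12.9 V bases, 10.1 between and 18.3 J bases, against 13.0, 9.66 and 18.5 in other clones. The match cannot be longer than the gene's own common start, 14 bases for TRBV20, so these counts depend on that length as well as on trimming. The count was not made for each of the other TRBV genes. This split was described after the lengths were seen and was not tested.

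The middle of CDR3, after the leading 4 and before the last 4 residues, was less negative in TRBV29 clones than in other clones. Its mean net charge, counting lysine and arginine as positive and aspartate and glutamate as negative, was -0.171 in Combined, -0.122 in CSF1R, -0.368 in CTX, 0 in CTX2, 0 in PBS2 and 0.143 in PBS1 for TRBV29 clones. For other clones it was -0.478, -0.477, -0.508, -0.543, -0.511 and -0.575 in the same libraries. Every TRBV29 value lay above every value of the other clones.

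The TRBV29 difference in charge was 0.429 (SD 0.203, n = 6, higher in 6 of 6 libraries, exact sign-flip p = 0.03125, adjusted p = 0.0417 over 12 genes). The adjusted p was under 0.05, but so was that of 75% of the 12 TRBV genes, with 50% of the 12 upward. A charge difference was thus not particular to TRBV29. The common start of TRBV29, at 15 bases, runs into this middle stretch. The clones were chosen by that V gene, so the difference is a description and not a test independent of the choice. With 5 libraries the smallest p is too large for a call, and leaving out any library raised the adjusted p above 0.05. Arginine made up 7.42% of the middle residues in TRBV29 clones and 5.69% in clones with neither gene, aspartate 6.73% and 9.31%, and glutamate 4.10% and 5.48%.

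TRBV20 clones were close to other clones in the charge of this middle stretch. The difference was 0.0666 (SD 0.125, higher in 4 of 6 libraries, exact sign-flip p = 0.188, adjusted p = 0.205). Counted over the whole CDR3, a setting chosen after seeing the data, TRBV20 averaged -0.0894 ± 0.108 and other clones -0.777 ± 0.0435. The difference was 0.688. In that setting 75% of the 12 genes kept 1 direction in all 6 libraries, 41.7% upward and 33.3% downward. The arginine of the CGAR opening is inside the whole CDR3 and outside the middle stretch. The clones were chosen by the V gene that sets this opening, so the whole-CDR3 difference is a description and not a test. Hydrophobicity of the middle stretch did not pass for either gene, with differences on the Kyte-Doolittle scale of 0.0301 for TRBV20 and 0.205 for TRBV29 (exact sign-flip adjusted p = 0.0938 for TRBV29, higher in 5 of 6 libraries).

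**Figure D3:**
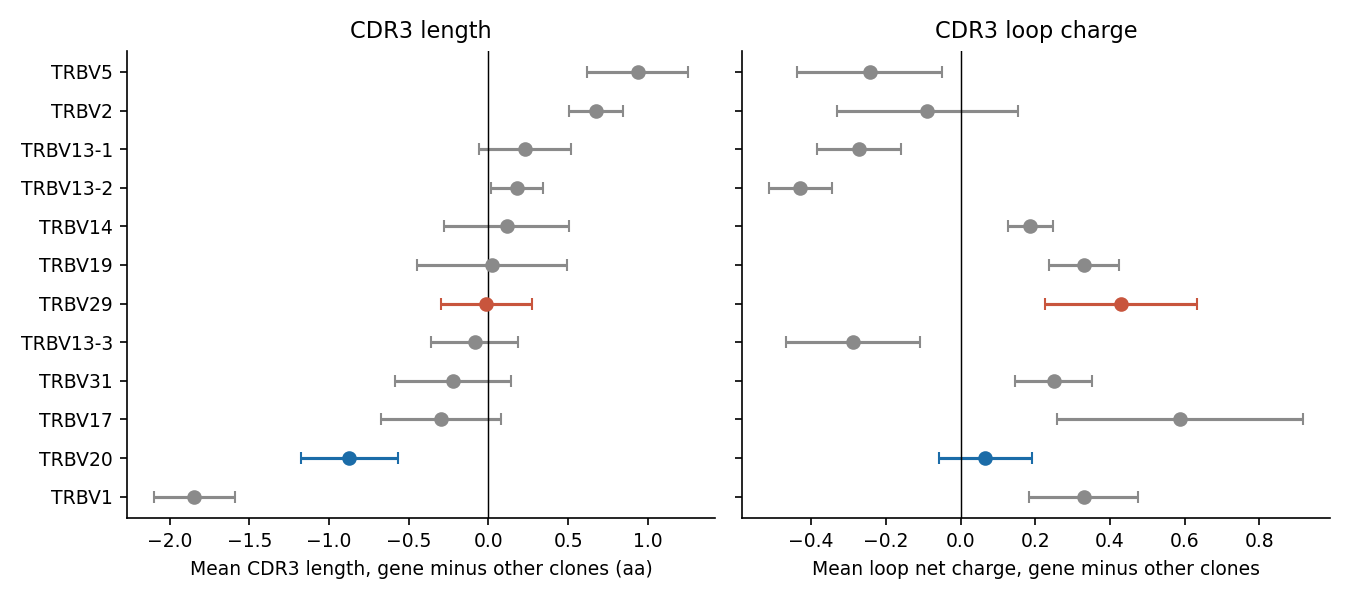
Mean difference of each of 12 TRBV genes from the other clones of the library in CDR3 length (left, amino acids) and in net charge of the middle of CDR3 (right). Points are means and bars the SD over 6 libraries, with TRBV20 in blue at -0.873 amino acids and TRBV29 in red at a charge difference of 0.429.

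The share of clones joined to the TRBJ2 cluster was lower in TRBV20 clones than in other clones of each library, without passing the adjusted test. TRBV20 clones carried a TRBJ2 gene in 56.0% of cases in Combined, 56.1% in CSF1R, 53.3% in CTX, 50% in CTX2, 59.1% in PBS2 and 55.6% in PBS1. The other clones carried one in 61.3%, 61.5%, 66.3%, 63.2%, 63.7% and 57.6% in the same libraries. The ranges overlapped, since TRBV20 in PBS2 stood above the other clones of PBS1.

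The mean TRBJ2 share was 55.0% ± 3.07 in TRBV20 clones and 62.3% in other clones (n = 6), a difference of -7.25 percentage points (SD 4.69, exact sign-flip p = 0.03125, adjusted p = 0.188 over 12 genes). A lower share in all 6 libraries was found for 16.7% of the 12 genes. The difference was -6.26 points within the libraries named by number (n = 4) and -9.24 within the JR libraries (n = 2). TRBV29 clones averaged 55.9% ± 12.4 and other clones 62.2%, with PBS2 at 77.3% above its other clones and the remaining 5 libraries below theirs (exact sign-flip p = 0.219). TRBV20 and TRBV29 differed by -0.938 points (SD 11.3, exact sign-flip p = 0.875).

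**Figure D4:**
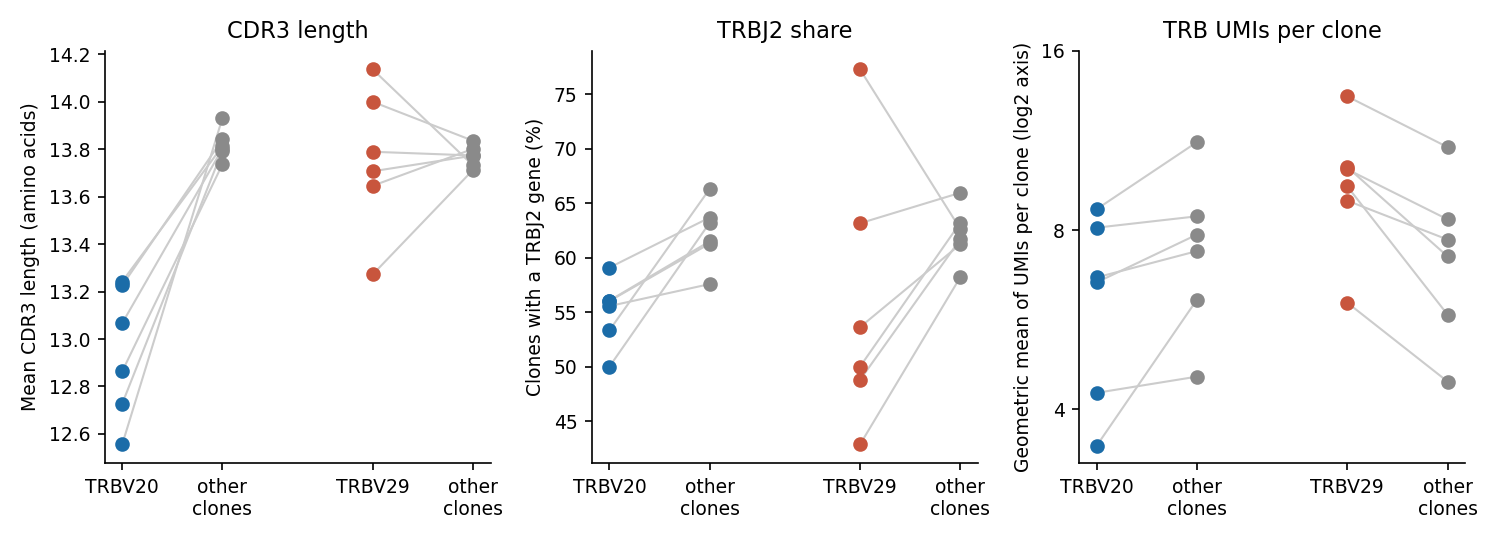
Mean CDR3 length, share of clones with a TRBJ2 gene and geometric mean over clones of the clone's median TRB UMIs per cell (log2 axis). TRBV20 and TRBV29 each stand left of the other clones of the same library. Lines join the 6 libraries, and TRBV20 lies below its other clones in all 6 for each measure.

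Single J genes showed no difference that passed correction over the 144 pairs of TRBV and TRBJ gene tested. With TRBV20, TRBJ2-7 led with 101 clones, followed by TRBJ1-1 with 90, TRBJ2-3 with 82, TRBJ2-1 with 75, TRBJ1-2 with 70 and TRBJ1-4 with 69. TRBJ2-4 had 55, TRBJ1-3 had 52, TRBJ2-5 had 51, TRBJ2-2 had 45, TRBJ1-5 had 25 and TRBJ1-6 had 17. Among single J genes in Combined, the gap at TRBJ2-5 was the widest. There it was joined to 7.53% of TRBV20 clones (5.54 to 9.94) and 12.2% of other clones, and it was lower in 5 of 6 libraries (exact sign-flip p = 0.0625). Averaged over the 6 libraries, TRBJ1-3 had the widest gap, at 13.2% ± 10.7 (SD) of TRBV20 clones and 6.13% of other clones, higher in 5 of 6 libraries, and TRBJ2-5 stood at 5.88% ± 4.12 and 12.5%. TRBJ1-2 stood at 9.70% of TRBV20 clones in Combined (7.45 to 12.4) and 5.55% of other clones, and was higher in 4 of 6 libraries.

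With TRBV29, TRBJ2-7 led with 66 clones, followed by TRBJ2-5 with 57, TRBJ1-1 with 54 and TRBJ1-4 with 48. TRBJ2-1 and TRBJ2-4 had 36 clones each, TRBJ1-2 and TRBJ1-3 had 33 each, TRBJ2-3 had 31, TRBJ1-5 had 29, TRBJ2-2 had 22 and TRBJ1-6 had 11. TRBJ2-2 was lower than in other clones in 6 of 6 libraries, with means of 3.32% in TRBV29 clones and 5.64% in other clones (exact sign-flip p = 0.03125, adjusted p = 0.429). A lower share in all 6 libraries was found for 4.86% of the 144 pairs. TRBJ1-5 stood at 5.80% of TRBV29 clones in Combined (3.58 to 8.81) and 2.96% of other clones, and was higher in 4 of 6 libraries.

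**Figure D5:**
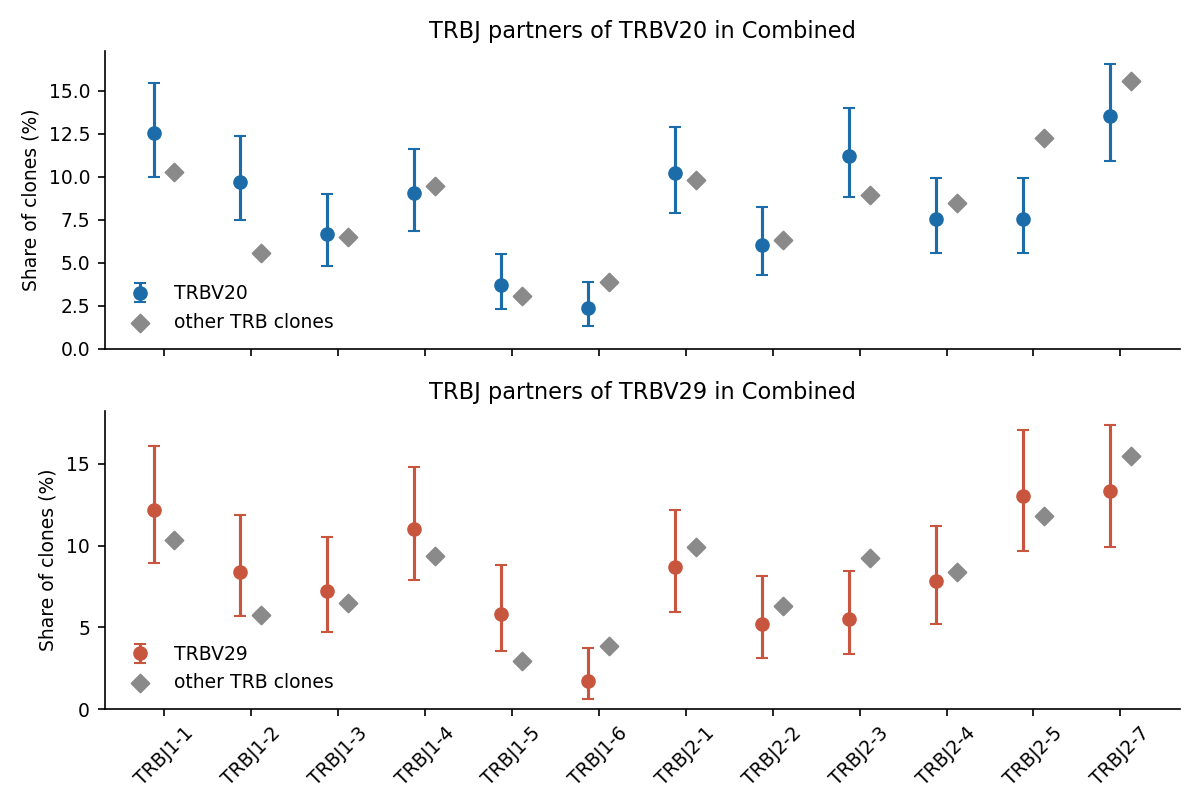
Share of clones (vertical axis, percent) joined to each TRBJ gene in Combined, for TRBV20 (upper) and TRBV29 (lower), with exact Clopper-Pearson 95% intervals, beside all other TRB clones of the library (grey diamonds). TRBJ2-5 lies at 7.53% for TRBV20 and 12.2% for other clones.

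The D gene call also differed between the genes, a description made after the values were seen. TRBV29 clones carried a TRBD1 call in 59.3% ± 8.80 of cases and other clones in 44.4% ± 3.19 (SD, n = 6), higher in 6 of 6 libraries. TRBV20 clones carried TRBD1 in 39.8% ± 7.92 and other clones in 45.3% ± 3.23, lower in 4 of 6. D calls were not compared for each of the other TRBV genes. How many of them would move the same way in all libraries is therefore not known. No D gene was called for 32.4% of TRBV20 clones, 25.4% of TRBV29 clones and 23.7% of clones with neither gene. TRBD2 lies behind the TRBJ1 cluster, and yet 16 of the 180 TRBV20 clones called TRBD2 carried a TRBJ1 gene, so single D calls are uncertain.

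In each library the TRB contig had fewer UMIs in TRBV20 clones and more in TRBV29 clones than in other clones, without passing the adjusted test. Each clone was given the median UMIs of its TRB contig per cell, and the geometric mean over clones was taken. For TRBV20 this mean was 8.07 in Combined, 4.26 in CSF1R, 6.66 in CTX, 8.67 in CTX2, 3.48 in PBS2 and 6.54 in PBS1. For TRBV29 it was 10.1, 6.04, 10.2, 13.4, 9.47 and 8.96 in the same libraries. TRBV29 was above TRBV20 in every library.

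Against other clones the fold was 0.816 for TRBV20 (log2 difference -0.29, lower in 6 of 6 libraries) and 1.32 for TRBV29 (log2 difference 0.41, higher in 6 of 6). Both had an exact sign-flip permutation p = 0.03125 and an adjusted p = 0.0625 over 12 genes, which does not pass 0.05. The same direction in all 6 libraries was found for 50% of the 12 genes. TRBV20 over TRBV29 gave a fold of 0.632 (log2 difference -0.66, exact sign-flip p = 0.03125, adjusted p = 0.141 over 9 measures). UMIs per contig count both transcripts and capture, which cannot be told apart here.

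Few member clones held more than 1 cell. Clones of 2 or more cells numbered 7 of 732 for TRBV20 (0.956%), 4 of 456 for TRBV29 (0.877%) and 194 of 8986 for clones with neither gene (2.16%). By library, TRBV20 had 4 such clones in Combined, 0 in CSF1R, 1 in CTX, 1 in CTX2, 0 in PBS2 and 1 in PBS1, and TRBV29 had 2 in Combined, 1 in CSF1R, 0 in CTX, 0 in CTX2, 1 in PBS2 and 0 in PBS1. The mean difference from other clones was -2.59 percentage points for TRBV20 (lower in 5 of 6 libraries, exact sign-flip p = 0.156) and -5.29 points for TRBV29 (lower in 4 of 6, exact sign-flip p = 0.219). With clones of 3 or more cells the differences were -0.0922 points for TRBV20 and -2.79 points for TRBV29, and without cells with extra chains that of TRBV20 was -1.05 points. A lower share in all 6 libraries was found for 8.33% of the 12 genes.

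The largest member clone was found in PBS1. It joined TRBV20 to TRBJ1-3 and held 7 cells, 3.65% of the 192 cells of that library with a TRB. All 7 cells carried the alpha chain TRAV5N-4 to TRAJ49 with 1 alpha CDR3. The next was a TRBV20 to TRBJ2-3 clone of 5 cells in CTX, whose 5 cells all carried TRAV7D-2 to TRAJ49, also with 1 alpha CDR3. Both are printed above, and they were the member clones with more than 3 cells. For comparison, the largest clone with neither gene held 119 cells.

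The smaller expanded clones were less firmly tied to 1 alpha chain. The TRBV29 clone of 3 cells in CSF1R, joined to TRBJ2-2, rested on 3 UMIs, its cells carried different alpha chains, and 2 of the 3 carried another TRB contig. The TRBV20 clone of 2 cells in CTX2, joined to TRBJ1-2, had an alpha chain in 1 cell. In Combined, the 3 TRBV20 clones ranked highest by UMIs (1 joined to TRBJ2-4 and 2 joined to TRBJ1-1) each had their main alpha chain in 1 cell. Both cells shared an alpha chain in the TRBV29 clones joined to TRBJ2-4 in Combined (TRAV4-3 to TRAJ15) and to TRBJ2-7 in PBS2 (TRAV12-3 to TRAJ28). In the remaining TRBV29 clone of Combined, joined to TRBJ1-5, 1 of 2 cells had the main alpha chain.

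An alpha chain was found for most member clones. A productive TRA accompanied 86.8% ± 2.83 of TRBV20 clones and 85.1% ± 3.65 of other clones, and 87.4% ± 7.51 of TRBV29 clones and 85.1% ± 3.40 of other clones (SD, n = 6 each). Neither difference passed the exact sign-flip test (adjusted p = 0.375 and 0.469), and 0% of the 12 genes did. An additional TRB contig was present in 18.5% ± 9.86 of cells with TRBV20 and 18.4% ± 14.4 of cells with TRBV29, against 19.5% ± 7.62 and 19.4% ± 7.83 of the cells with other genes (exact sign-flip adjusted p = 0.906 for both). An additional TRA contig was counted only among cells with at least 1 productive TRA. It was present in 14.8% ± 10.9 of such cells with TRBV20 and 15% ± 10.8 of those with TRBV29. The cells with other genes stood at 18.2% ± 2.94 and 18.3% ± 2.96 (adjusted p = 0.643 and 0.675 by the same exact test). Such cells may be doublets and were kept.

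The alpha partners were spread over many V families. Among 612 TRBV20 clones with an alpha chain, TRAV6 was found in 96, TRAV7 in 93, TRAV9 in 71, TRAV4 in 60 and TRAV14 in 57. Among 365 TRBV29 clones, TRAV7 was found in 59, TRAV6 in 52, TRAV14 in 49, TRAV9 in 36 and TRAV12 in 34. Of 168 pairs of TRBV gene and TRAV family, 0 passed correction, and 5.36% moved the same way in all 6 libraries. One of those was TRBV20 with TRAV8, which averaged 2.30% of TRBV20 clones and 5.36% of other clones (exact sign-flip p = 0.03125, adjusted p = 0.543).

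Pooled over libraries, TRAJ18 was the most frequent alpha J gene of TRBV20 clones, mainly through Combined. It was found in 36 of 612 clones (5.88%, 4.15 to 8.05), against 2.81% of other clones. Of these, 32 came from Combined, 0 from PBS2 and 0 from PBS1, and its share was higher than in other clones in 3 of 6 libraries. Averaged over the 6 libraries, the order among the 5 TRAJ genes with the most pooled clones was different. TRAJ49 stood at 7.02% ± 9.33, TRAJ45 at 6.64% ± 5.35, TRAJ30 at 4.54% ± 4.24, TRAJ18 at 4.41% ± 4.43 and TRAJ37 at 2.89% ± 5.09 of TRBV20 clones (SD, n = 6). Small libraries weigh on these means, since TRAJ49 was found in 2 of 8 clones in PBS1, 0 of 19 in CTX2 and 0 of 20 in PBS2. TRAJ18 is the J gene of the NKT alpha chain, but 0 of the 36 used TRAV11, its V gene; they used 10 TRAV families, TRAV7 leading with 7, and 34 distinct alpha CDR3s. By pooled clones TRAJ49 followed with 34, TRAJ30 and TRAJ45 with 27 each and TRAJ37 with 25. TRBV29 was led by TRAJ49 with 21 clones, TRAJ30 with 20 (5.48%, against 2.62% of other clones), TRAJ40 with 18, TRAJ52 with 17 and TRAJ31 with 16.

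The invariant alpha chain of NKT cells, TRAV11 joined to TRAJ18, occurred in 22 of the 10174 TRB clones. That total includes clones without an alpha chain. None of the 612 TRBV20 clones with an alpha chain carried it, and a count of 0 allows a share of up to 0.490%. It occurred in 2 of 365 TRBV29 clones (0.548%), 1 in CTX joined to TRBJ1-3 and 1 in PBS1 joined to TRBJ2-3. Both had the same alpha CDR3 and held 1 cell, and their beta sequences are printed above. These counts are too small to set TRBV29 apart from TRBV20 or from the other clones, and the difference was not tested. The alpha chain of MAIT cells, TRAV1 joined to TRAJ33, occurred in 10 of the 10174 TRB clones. It was found with TRBV20 in 1 clone (joined to TRBJ2-5, in PBS1), 0.163% of its clones with an alpha chain. With TRBV29 it was found in 1 clone (joined to TRBJ1-4, in Combined), 0.274% of its clones with an alpha chain. Neither share was tested. MAIT cells recognise vitamin B metabolites.

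A few TRBV20 CDR3s and no TRBV29 CDR3 recurred between libraries at the amino acid level. Of 719 distinct TRBV20 amino acid sequences, 8 (1.11%) occurred in 2 libraries, against 0 of 456 for TRBV29, which allows up to 0.658%, and 72 of 8833 (0.815%) for clones with neither gene. Among the 12 genes, the share of TRBV20 ranked 4, and TRBV29 was 1 of 3 genes at 0. Those 3 had the fewest distinct sequences of the 12 genes, 456 for TRBV29, 333 for TRBV14 and 176 for TRBV17. Fewer sequences leave fewer openings for a match, so the 0 of TRBV29 is not shown to be a trait of the gene. No member was found in 3 libraries, and 4 clones with neither gene were. The difference between the genes was not tested. Combined, the library with the most clones, was 1 of the 2 libraries for 7 of the 8 recurrent sequences.

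The 8 recurrent TRBV20 sequences opened with CGAR, had 11 to 14 residues, and in 0 cases shared their nucleotide sequence between libraries. An alpha chain was found in both libraries for 7 of the 8, and in 0 of these 7 was it the same. A mean of 5.56 bases lay between the matched V and J ends, against 9.07 over all TRBV20 clones. Of these, 2 were chosen after their values were seen and are printed as found in each library, to show how different bases spelled the same residues, with capitals as above. The longer was joined to TRBJ1-5 and the shorter to TRBJ2-7.
TRBV20 to TRBJ1-5, Combined: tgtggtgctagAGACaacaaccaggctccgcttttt
TRBV20 to TRBJ1-5, CSF1R: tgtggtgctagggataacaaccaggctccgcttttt
TRBV20 to TRBJ2-7, CSF1R: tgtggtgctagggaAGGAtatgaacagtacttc
TRBV20 to TRBJ2-7, CTX2: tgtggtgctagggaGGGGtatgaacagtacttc
The CSF1R copy joined to TRBJ1-5 held 0 bases outside the matched ends, and the other 3 sequences held 4 each. In all, 13 TRBV20 amino acid sequences (1.81%) were spelled by at least 2 nucleotide sequences, within or between libraries. The count was 0 for TRBV29 and 117 (1.32%) for clones with neither gene.

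Nonproductive rearrangements, which carry a frame shift or stop and are not seen on the cell surface, gave a reference for V gene use. TRBV20 made up 732 of 10174 productive TRB rearrangements (7.19%) and 5 of 373 nonproductive ones (1.34%, 0.437 to 3.10). In Combined it made up 598 of 7843 productive and 1 of 257 nonproductive rearrangements. In PBS2 it made up 22 of 402 productive ones (5.47%, 3.46 to 8.17) and 2 of 17 nonproductive ones (11.8%, 1.46 to 36.4). These PBS2 intervals overlapped. The mean log2 odds ratio was 0.79 (SD 1.79, higher in 4 of 6 libraries, exact sign-flip p = 0.375, adjusted p = 0.434 over 22 genes). It was 0.18 without Combined, 0.08 in the libraries named by number (n = 4) and 2.21 in the JR libraries (n = 2).

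TRBV29 made up 456 productive rearrangements (4.48%) and 23 of 373 nonproductive ones (6.17%, 3.95 to 9.11). Its mean log2 odds ratio was -0.24 (SD 1.20, lower in 4 of 6 libraries, exact sign-flip p = 0.625). Neither gene passed, where 63.6% of the 22 genes did, and the 14 to 42 nonproductive rearrangements of the smaller libraries limit these values.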

How the data were processed

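T cell receptor contigs from 6 single-cell libraries of CD45+ mammary tumour cells were analysed. The deposited table gives whole-number read counts and UMI counts per assembled contig, not normalized, with contig length, cell call, chain, V, D and J gene, CDR3 and productive status. The authors used Cell Ranger 3.0.2 with mm10 and GRCm38, names of the same assembly, per the submitters' processing notes. These calls were taken as deposited. Of 11 library names, 5 matched no label and were not used, and the expression matrices were not analysed here.

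Members and lists were chosen with earlier results of these data known. Named were the members, every TRBJ gene, the 5 TRAV families and 5 TRAJ genes most used with each member, the 3 largest clones of each member per library where they held at least 2 cells, the 3 TRBV genes of most similar share and receptors recurring in 3 or more libraries. A cell with 2 TRB contigs can enter 2 clones. Each measure was computed per library for each TRBV gene minus all other clones and its sign was flipped over the 6 libraries in every way (exact sign-flip permutation, two-sided), with p-values adjusted by Benjamini-Hochberg over 12 genes with at least 5 clones in each library. Odds ratios had 0.5 added to each count. A count of 0 is given the limit of 3 counts. The alternatives changed the clone unit, the contig and cell filters, the expansion threshold, the libraries and the placement of PBS2. Gene positions came from a RefSeq table in which 22 of 22 TRBV names matched.

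Tools were pandas 2.3.3, scipy 1.17.1 and numpy 2.4.6 under Python 3.11.15, with figures by matplotlib 3.10.9. The TRBJ2 share and CDR3 length differences were checked on simulated libraries with known answers.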

Additional observations from a re-analysis of the deposited data

Results flagged for a closer look

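In CTX the TRBV20 clones had a mean charge of -0.2 in the middle of CDR3, and the nearest of the other treated libraries stood at -0.435. The difference of TRBV20 from the other clones was 0.313 in CTX, and the nearest of the other treated libraries stood at 0.0678. In both cases CTX lay far from the other 3 of the 4 treated libraries, with the gap to the nearest taking 0.922 and 0.846 of the whole range where 0.829 is the limit. CTX held 15 TRBV20 clones. Of 40 sets of 4 libraries looked at, 2 stood out in this way, and chance marks about 1 in 20 such sets.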

How the results depend on the processing

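Of the results recomputed under alternatives, 358 kept their direction and their side of the threshold, 40 changed direction, 9 lost the threshold, 1 gained it and 1 moved. Where a value changed, the cause was not tested unless stated. The shorter CDR3, the lower TRBJ2 share and the lower UMIs of TRBV20, and the higher UMIs of TRBV29, kept their direction in every alternative run. Libraries of 141 to 514 clones, with 7 to 22 clones of each member, limit most of what follows, and 1 untreated library limits any statement on treatment.

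The charge difference of TRBV29 in the middle of CDR3 was 0.433 without cells with extra chains (exact sign-flip adjusted p = 0.0536), 0.431 in the libraries named by number, 0.425 in the JR libraries, and 0.371 to 0.487 with 1 library left out. None of these passed, and with fewer than 6 libraries the smallest p is larger by construction. Over the whole CDR3, whose opening residues the V gene sets, the difference of TRBV20 became 0.688 and TRBV20 minus TRBV29 turned to 0.199. The TRBV20 value was the 1 that gained the threshold, which is no test, since the clones were chosen by V gene. The mean TRBV29 share was 3.70% with each cell counted once, where large clones of other genes enter the total.

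Some differences that did not pass kept their sign but moved by over 1.5 times: expansion of TRBV20 was -0.0922 points at 3 or more cells, its log2 odds ratio 0.18 without Combined and its charge difference 0.0173 without CTX. The turns of sign were in differences that did not pass. Given as TRBV20 or TRBV29 minus other clones, and TRBV20 minus TRBV29, in percentage points unless named otherwise, high-confidence contigs gave 0.193 for an additional TRA with TRBV29, 7.10 for an additional TRB with TRBV29 and -7.01 for TRBV20 minus TRBV29. With at least 2 UMIs, the additional TRB of TRBV29 was 4.36, TRBV20 minus TRBV29 was -5.44, and the alpha partner found with TRBV20 was -3.32. Without cells with extra chains, hydrophobicity of TRBV20 was -0.0139, its alpha partner found -0.855, and an additional TRA 1.36 for TRBV20 minus TRBV29. With the TRB contig of most UMIs, hydrophobicity of TRBV20 was -0.0164 and an additional TRA 0.592 for TRBV20 minus TRBV29. The libraries named by number gave 4.78 for an additional TRA and -3.34 for an additional TRB, both TRBV20 minus TRBV29, and a log2 odds ratio of 0.0813 for TRBV29 among productive rearrangements. The JR libraries gave hydrophobicity -0.0282 and an additional TRB of 5.56 for TRBV20, a length of 0.125 amino acids and an additional TRA of 3.42 for TRBV29, and TRBJ2 1.20 and alpha partner found 0.503 for TRBV20 minus TRBV29.

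Leaving out 1 library gave ranges across 0 for hydrophobicity of TRBV20 (-0.0240 to 0.0772), an additional TRB with TRBV20 (-2.98 to 2.81) and with TRBV29 (-6.32 to 3.44), and the length of TRBV29 (-0.0964 to 0.0726). For TRBV20 minus TRBV29 they were -3.67 to 2.51 for TRBJ2, -1.93 to 0.799 for the alpha partner found, -3.45 to 4.82 for an additional TRA and -5.14 to 4.03 for an additional TRB. The treated minus untreated share of TRBV20 ran between -1.19, without Combined, and 0.0881, without CTX.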
